A study of Homo sapiens with 10 samples.

Results

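The AP-1 and immediate-early transcription factors followed here are 10 genes, FOS, FOSB, FOSL1, FOSL2, JUN, JUNB, JUND, EGR1, ATF3 and BATF3. They were found by gene symbol among 26256 genes in the counts of MCF10A and G12V cells and among 55736 genes in the counts of the Nutlin-3a experiment, and all 10 were present and passed the filter on low counts in both. MCF10A is an immortalized, non-transformed human breast epithelial line. G12V cells are MCF10A cells that received HRas with a G12V mutation from a viral vector, along with a GFP vector, and were then selected with hygromycin. The study reports that they first stop growing and resume after a few weeks. Whether the 2 libraries came from more than 1 transduction is not given in the sources used here, nor is a vector-only control. Poly(A) RNA was sequenced from 2 replicates of MCF10A and 2 of G12V cells, both without drug, and from MCF10A cells given 10 µM Nutlin-3a or its solvent DMSO for 4 h, with 3 replicates each. Nutlin-3a blocks the binding of MDM2 to p53. All cells grew in the medium usual for MCF10A, which contains EGF, insulin, hydrocortisone, cholera toxin and horse serum, so EGF and serum, both inducers of these genes, were present in every group.

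AP-1 is a dimer of basic leucine zipper (bZIP) proteins. JUN, JUNB and JUND pair with each other or with FOS, FOSB, FOSL1 and FOSL2, while the FOS proteins do not form stable dimers among themselves. Growth factors act through RAS and the ERK kinases on serum response factor (SRF) and its partners, which sit on CArG boxes in promoters such as those of FOS and EGR1 and switch them on within minutes. These immediate-early transcripts are short-lived, whereas FOSL1, which encodes FRA-1, comes later and is held up by sustained ERK signalling. ATF3 is a bZIP factor induced by stress, BATF3 is a small bZIP factor that dimerizes with JUN proteins and is best known from dendritic cells, and EGR1 is a zinc finger factor that is switched on with FOS.

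Shown are the promoters of EGR1, FOS and JUNB, which were among the members higher in replicate 2 of both cell types. Those of JUN, ATF3 and JUND are shown as well, since a searched motif was found in them. The searched motifs are the usual inputs of the family. RefSeq (GRCh38.p14) entries were matched for 8 of the 10 members, all but FOSL1 and BATF3, and the 250 bases before the start are printed 5′ to 3′ on the strand of the gene, with matched motifs in capitals. The windows are EGR1 at chr5:138465229-138465478, plus strand, FOS at chr14:75278578-75278827, plus strand, JUNB at chr19:12791236-12791485, plus strand, JUN at chr1:58784048-58784297, minus strand, the first of the 2 listed starts of ATF3 at chr1:212565157-212565406, plus strand, and JUND at chr19:18281623-18281872, minus strand.
EGR1: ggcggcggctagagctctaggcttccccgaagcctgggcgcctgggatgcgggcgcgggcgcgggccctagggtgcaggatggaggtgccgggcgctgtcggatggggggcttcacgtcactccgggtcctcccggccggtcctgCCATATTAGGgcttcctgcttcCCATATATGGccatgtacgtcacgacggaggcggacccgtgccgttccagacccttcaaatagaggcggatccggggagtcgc
FOS: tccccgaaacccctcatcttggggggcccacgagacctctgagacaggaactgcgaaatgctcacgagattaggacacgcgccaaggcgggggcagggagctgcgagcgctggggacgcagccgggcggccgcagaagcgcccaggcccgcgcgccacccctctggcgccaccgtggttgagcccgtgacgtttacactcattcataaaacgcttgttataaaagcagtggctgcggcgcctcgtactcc
JUNB: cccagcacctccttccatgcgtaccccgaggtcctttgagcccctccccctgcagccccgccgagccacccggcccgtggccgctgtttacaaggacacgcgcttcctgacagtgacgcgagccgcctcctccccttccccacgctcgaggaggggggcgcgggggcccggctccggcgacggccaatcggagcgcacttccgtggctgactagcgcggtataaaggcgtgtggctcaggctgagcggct
JUN: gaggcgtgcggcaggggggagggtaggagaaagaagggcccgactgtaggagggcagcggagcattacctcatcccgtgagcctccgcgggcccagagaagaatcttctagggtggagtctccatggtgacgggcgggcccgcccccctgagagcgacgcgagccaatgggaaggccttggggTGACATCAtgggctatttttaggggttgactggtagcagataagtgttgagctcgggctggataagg
ATF3: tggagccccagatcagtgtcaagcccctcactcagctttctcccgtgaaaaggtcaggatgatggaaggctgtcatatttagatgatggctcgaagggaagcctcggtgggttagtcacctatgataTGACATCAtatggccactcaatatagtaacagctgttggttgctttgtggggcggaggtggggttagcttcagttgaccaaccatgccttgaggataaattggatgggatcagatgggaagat
JUND: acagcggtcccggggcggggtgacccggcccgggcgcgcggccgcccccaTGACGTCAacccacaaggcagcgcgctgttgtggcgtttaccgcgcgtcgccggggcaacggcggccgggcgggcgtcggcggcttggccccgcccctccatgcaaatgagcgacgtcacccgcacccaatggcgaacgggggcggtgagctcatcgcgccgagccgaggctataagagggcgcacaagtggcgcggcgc

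Both strands were searched for the TRE that AP-1 binds (TGACTCA or TGAGTCA), the CRE that ATF and CREB factors bind (TGACGTCA), the variant of these in the JUN promoter (TGACATCA), and the CArG box. No letters of one matched motif overlapped another. EGR1 held 2 CArG boxes, at 105 to 96 and at 83 to 74 bases before the start, and 1.16% of 35116 promoters of the same length held at least 1. ATF3 held the variant site at 123 to 116 bases before the start, a motif found in 2.37% of promoters. JUN held it at 67 to 60 bases, which was given in advance, since the motif was chosen for that promoter. JUND held a CRE at 200 to 193 bases before the start, as 1.65% of promoters did. The TRE stood in 4.20% of all promoters and in none of the windows of the 8 members. The windows of FOS, FOSB, FOSL2, JUNB and the second start of ATF3 held none of the 4 motifs. Bases further upstream were not searched, so these windows cannot show that a promoter lacks a motif, such as the CArG box of FOS.

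Total counts were between 21538593 and 23683975 reads in the libraries of MCF10A and G12V cells and between 15453226 and 17378734 in the Nutlin-3a experiment, and no library repeated another. HRAS, which checks the labels, was at 65.9 to 72.6 CPM (read counts scaled to the size of the library) in MCF10A and at 515 to 631 CPM in G12V cells. CDKN1A and MDM2, both targets of p53, were higher in each Nutlin-3a library than in any DMSO library. In G12V cells 6 of 8 markers of mammary epithelium (KRT5, KRT14, KRT17, CDH1, EPCAM and TP63) were lower and passed the test. KRT18 was lower without passing it (log2 fold change -0.71, edgeR adjusted p = 0.0684), and KRT8 lay the other way (0.18, edgeR adjusted p = 0.661). The summed level of all 8 was 6856 to 8415 CPM in MCF10A and 1363 to 1662 CPM in G12V cells. Of the mesenchymal markers 3 of 5 (CDH2, ZEB1 and ZEB2) were higher. The sums of the mesenchymal list were 828 to 1013 and 1398 to 1826 CPM, most of it VIM at 774 to 972 and 1229.7 to 1626 CPM, which did not pass the test. COL1A1 lay the other way, at 11.5 and 5.86 CPM in MCF10A against 3.25 and 4.64 CPM in G12V cells (log2 fold change -1.14, edgeR adjusted p = 0.166). Of the leukocyte markers PTPRC and CD3E had at most 2 reads in any library, whereas CD68 rose from a mean of 12.2 CPM in MCF10A to 55.0 CPM in G12V cells and had at most 2 reads in the Nutlin-3a experiment. The endothelial markers summed to at most 3.68 CPM in any library. After Nutlin-3a none of the epithelial and mesenchymal markers was called. Counts of bulk RNA cannot tell fewer cells of a kind from less RNA per cell, and the part of this shift of markers in the results below was not tested.

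The first comparison asked how the levels of these factors differed between G12V and MCF10A cells. The separate parts of HRas, the vectors, the selection and the regrowth were not tested. BATF3 and FOSL1 were higher in G12V cells and were the members called differentially expressed (DE), which asked for an adjusted p below 0.05 together with a log2 fold change beyond 0.5 in either direction. BATF3 rose about 11-fold from a very low level and FOSL1 a little over 2-fold from a high one. The other 8 members, among them FOS, JUN and EGR1, did not pass the test. DE were thus 2 of 10 members, both higher, beside 11.0% of the 14376 genes tested (5.01% higher and 5.95% lower). The libraries of both cell types did not overlap for 5 members (FOSL1, JUN, JUND, ATF3 and BATF3), beside 54.8% of all genes tested. The median log2 fold change was -0.13 over the members and -0.0011 over all genes, and the median size of the change was 0.69 and 0.36.

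FOSL1 (chromosome 11, 65659607 to 65667997, minus strand, hg19) was read at 69.2 and 47.6 CPM in MCF10A replicates 1 and 2 and at 155 and 110.0 CPM in G12V replicates 1 and 2. Both G12V libraries thus lay above both MCF10A libraries. The log2 fold change was 1.18 (SE 0.27, n = 2 each, edgeR adjusted p = 0.0448), higher than in 93.3% of all genes. The call stood close to the threshold. It was lost with upper-quartile factors (adjusted p = 0.0513), with library totals alone (0.0562), without the filter on low counts (0.0539), and without MCF10A replicate 1 (0.161), MCF10A replicate 2 (0.120) or G12V replicate 1 (0.0546), all in edgeR's test.

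BATF3 (chromosome 1, 212859759 to 212873327, minus strand) had 17 and 11 reads in the MCF10A libraries against 181 and 140 in those of G12V cells. These were 0.773 and 0.484 CPM against 7.74 and 6.24 CPM, so each G12V library was well above both MCF10A libraries. This gave a log2 fold change of 3.47 (SE 0.42, n = 2 each, edgeR adjusted p = 0.00655), higher than in 98.9% of all genes. Without MCF10A replicate 1 the change was 3.86 and the adjusted p 0.0996, in a fit that called none of 14883 genes DE although 2830 had an unadjusted p under 0.05. No other gene of that counts table overlapped either gene.

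**Figure D1:**
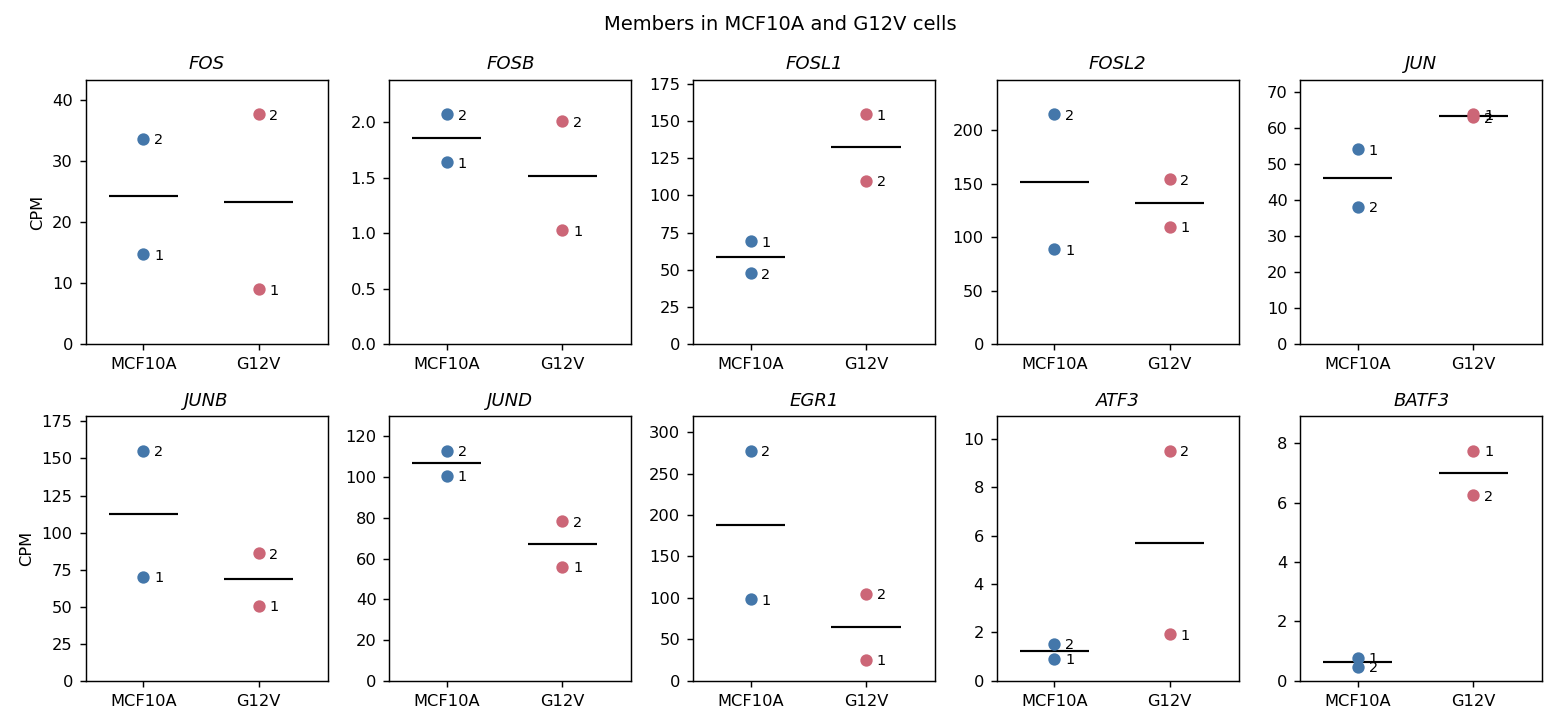
Level of each member (CPM on scaled library sizes, each panel from 0) in the libraries of MCF10A (blue) and G12V cells (red), with the replicate number beside each point and a bar at the group mean. FOSL1 and BATF3 lie higher in both G12V libraries, while EGR1, FOS, JUNB, FOSL2 and ATF3 are higher in replicate 2 than in replicate 1 of each cell type.

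ATF3 (chromosome 1, 212738676 to 212794119, plus strand), the nearest member to BATF3 on the chromosome at 65639 bases, had the next highest change but spread widely. It was at 0.909 and 1.54 CPM in MCF10A and at 1.92 and 9.50 CPM in G12V cells. Both G12V libraries were above both MCF10A libraries, and replicate 2 was 4.94-fold above replicate 1 in G12V cells. The log2 fold change of 2.21 (SE 0.79) did not pass the test (edgeR adjusted p = 0.145), whereas the study names ATF3, with FOSL1, as up-regulated in G12V cells. ATF3 passed in edgeR's exact test (adjusted p = 0.0402, beside 17.6% of all genes) and in DESeq2 (adjusted p = 0.0268, beside 16.0%). Without G12V replicate 1 its log2 fold change was 2.95. Without G12V replicate 2 the change was 0.65.

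Among the JUN genes, which supply the partner that every FOS protein needs, JUN (chromosome 1, 59246463 to 59249785, minus strand) was at 54.1 and 38.2 CPM in MCF10A and at 63.9 and 63.0 CPM in G12V cells. JUND, the member of the family that is least inducible by growth factors, was at 101 and 113 CPM in MCF10A and at 56.1 and 78.3 CPM in G12V cells. For both the cell types did not overlap, in opposite directions, but neither change passed the test: it was 0.46 (SE 0.22, edgeR adjusted p = 0.271) for JUN and -0.67 (SE 0.22, edgeR adjusted p = 0.120) for JUND on the log2 scale. JUNB was at 70.2 and 155 CPM in MCF10A and at 50.8 and 86.1 CPM in G12V cells. The libraries of JUNB overlapped, with a log2 fold change of -0.72 (SE 0.43, edgeR adjusted p = 0.366).

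EGR1 (chromosome 5, 137801181 to 137805004, plus strand) was at 98.4 and 277 CPM in MCF10A and at 25.6 and 105 CPM in G12V cells. The higher G12V library was just above the lower MCF10A library, and the log2 fold change of -1.52 (SE 0.74) did not pass the test (edgeR adjusted p = 0.270). Without G12V replicate 2 it was -2.88 and was called (edgeR adjusted p = 0.0036, beside 10.3% of all genes). FOS (chromosome 14, 75745481 to 75748937, plus strand), the founding member, was at 14.8 and 33.7 CPM in MCF10A and at 9.02 and 37.7 CPM in G12V cells. The FOS values of G12V cells enclosed those of MCF10A, and the log2 fold change was -0.05 with an SE of 0.69, so changes of over 2-fold in either direction lie within 2 SE.

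FOSL2, which encodes FRA-2, was at 88.7 and 215 CPM in MCF10A and at 109.7 and 154 CPM in G12V cells. The log2 fold change was -0.20 (SE 0.42, edgeR adjusted p = 0.832). FOSB was low, at 1.64 and 2.07 CPM in MCF10A and at 1.03 and 2.01 CPM in G12V cells. This was a log2 fold change of -0.29 (SE 0.46, edgeR adjusted p = 0.767). Both overlapped between the cell types. The signs for FOS, FOSB and FOSL2 turned when a library was left out: without G12V replicate 1 their log2 fold changes were 0.63, 0.11 and 0.02, and without MCF10A replicate 2 those of FOS and FOSL2 were 0.66 and 0.57.

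**Figure D2:**
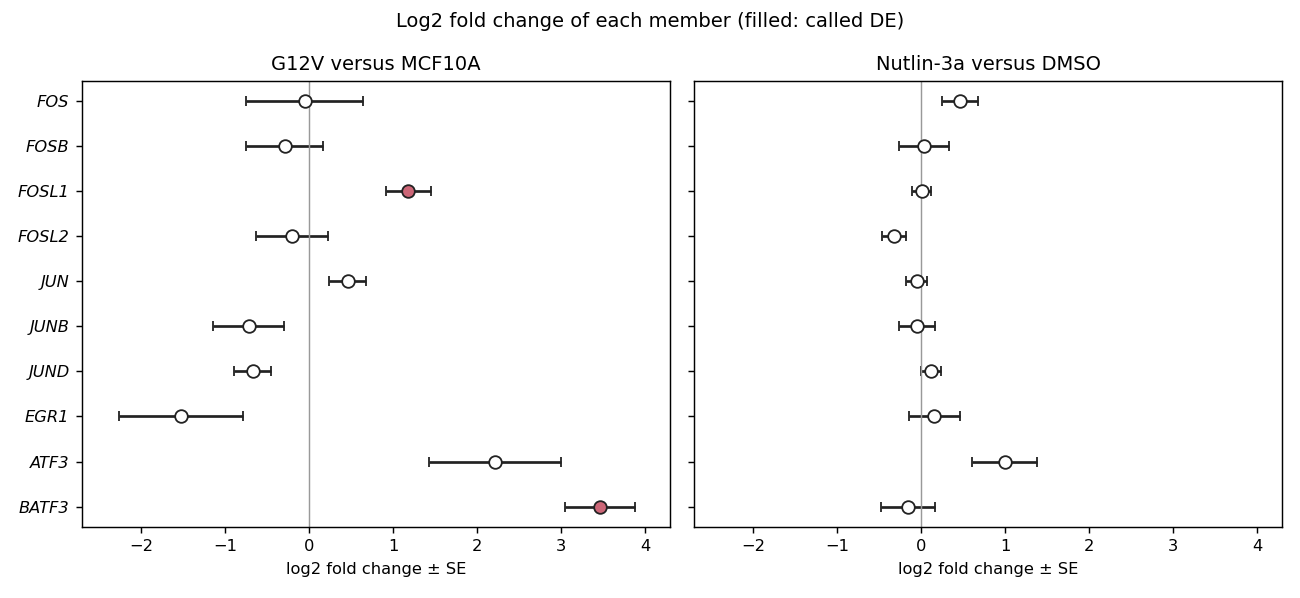
Log2 fold change of each member (points) with its standard error (bars) in G12V versus MCF10A cells (left, n = 2 each) and in Nutlin-3a versus DMSO (right, n = 3 each), filled where called DE in edgeR's quasi-likelihood test. FOSL1 and BATF3 are filled on the left and no member on the right, and the error bars are widest for ATF3, EGR1 and FOS in G12V versus MCF10A. The replicate number is in neither fit. Taken into the fit, it added ATF3 on the right, where 1.22% of all genes were then called. On the left it added JUNB, JUND, EGR1 and ATF3, where 28.9% of all genes were then called, against 11.0% without it.

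The width of these errors came from differences between replicates of one cell type. EGR1 differed 2.82-fold between the replicates of MCF10A and 4.12-fold between those of G12V cells, FOS 2.28- and 4.18-fold, and JUNB 2.21- and 1.69-fold. In the same order FOSL2 differed 2.42- and 1.40-fold, ATF3 1.70- and 4.94-fold, FOSB 1.27- and 1.96-fold, and BATF3 1.59- and 1.24-fold. FOSL1 differed 1.45- and 1.40-fold, JUN 1.42- and 1.01-fold, and JUND 1.12- and 1.40-fold. Over all genes the median of this ratio was 1.23 in MCF10A and 1.25 in G12V cells. The replicate with the higher value bore the same number in both cell types for all 10 members, and for 69.5% of all genes tested. Replicate 2 was the higher one for FOS, FOSB, FOSL2, JUNB, JUND, EGR1 and ATF3, and replicate 1 for FOSL1, JUN and BATF3. The labels do not tell what libraries of the same number share in this experiment.

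Levels of different genes were set side by side only after division by transcript length (CPM per kb, with the canonical transcripts of GENCODE v44 on GRCh37). In MCF10A the highest were JUNB at 61.5 ± 32.8, EGR1 at 59.9 ± 40.3 and JUND at 55.3 ± 4.49 CPM per kb (SD, n = 2), which did not differ beyond their spread. FOSL1 followed at 34.3 ± 8.98, FOSL2 at 22.6 ± 13.3, JUN at 14.2 ± 3.46 and FOS at 11.5 ± 6.37 CPM per kb, each overlapping its neighbour. BATF3, ATF3 and FOSB were all under 1 CPM per kb. In G12V cells FOSL1 stood first, at 77.7 ± 18.5 CPM per kb, with both of its libraries above both libraries of the next, JUNB, at 37.4 ± 13.6. JUND, EGR1, FOSL2, JUN and FOS came next, from 34.8 to 11.1 CPM per kb, and BATF3 reached 8.36 ± 1.26 CPM per kb, above ATF3 (2.94 ± 2.76) and FOSB (0.402 ± 0.184).

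Within the FOS family, FOSL1 made up 66.3% and 36.5% of the CPM per kb in the 2 MCF10A libraries and 81.3% and 60.9% in the 2 G12V libraries. Its shares overlapped between the cell types, and in MCF10A replicate 2 FOSL2 had the larger share, 41.8%. The summed level of the 4 FOS genes was 61.3 and 76.5 CPM per kb in MCF10A and 112 and 106 in G12V cells, whereas that of the 3 JUN genes was 107 and 155 in MCF10A against 76.4 and 107 in G12V cells. FOS-family transcripts were thus fewer than JUN-family transcripts in each MCF10A library, and in G12V cells they were more numerous in replicate 1 and about level in replicate 2. This balance depends on the lengths used. The transcripts listed in the Nutlin-3a counts are shorter for FOSL1 (1427 against 1702 bases) and FOSL2 (5829 against 6713). They are the same for the JUN genes, so with them the balance shifts towards the FOS family. With 2 libraries a group an exact permutation test cannot fall below a p of 0.333, and these sums and shares are given without a test.

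**Figure D3:**
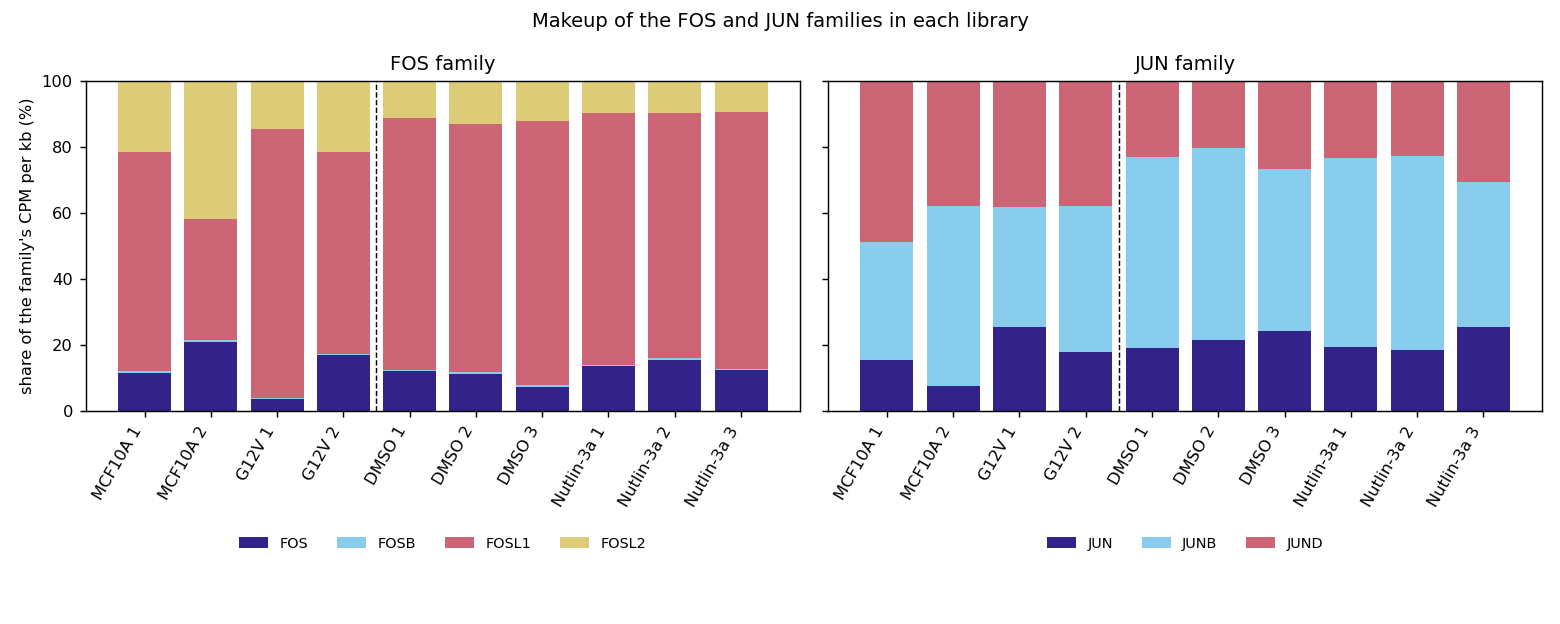
Share of each gene in the summed CPM per kb of its family, in percent, in every library. The dashed line parts the 2 experiments, which were counted separately. FOSL1 is the largest part of the FOS family in all libraries but MCF10A replicate 2, where FOSL2 is (41.8%), and JUN is at most 25.7% of the JUN family.

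Genes around these factors were read from 4 lists, whose counts stand beside 5.01% of all genes called higher and 5.95% called lower. The members and lists were chosen with earlier results of these data known, so their counts cannot test an enrichment over these shares. Of the other immediate-early genes, 14 of 16 were tested, and IER3, an ERK-induced gene, rose while EGR3 and KLF6 fell. IER3 was at 124 and 98.1 CPM in MCF10A and at 273 and 273 CPM in G12V cells (log2 fold change 1.30). EGR3, a close relative of EGR1, went from 3.14 and 4.27 CPM to 0.128 and 0.669 CPM (-3.21), and KLF6, a zinc finger factor, from 260.3 and 396 CPM to 95.1 and 132 CPM (-1.53). The other 11 did not pass, and the list's median log2 fold change was -0.19.

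Of 21 other bZIP genes 20 were tested. MAFG rose by 1.14 on the log2 scale, from a mean of 46.4 CPM to 103 CPM, and MAFF fell by 1.03, from 71.2 to 34.9 CPM. MAFG and MAFF are small MAF proteins, which lack an activation domain. MAF had 10 and 23 reads in MCF10A against 2 and 1 in G12V cells. Its mean in MCF10A was 5.38-fold above a floor of 3 reads per library. The other 17, among them ATF2, ATF4 and CREB1, did not pass, and the median log2 fold change was 0.07.

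Next were the transcripts of genes that carry the signal from RAS to these promoters. Of 19 kinases, SRF and SRF cofactors tested, 18 did not pass, and SRF itself was at 72.8 ± 7.72 CPM in MCF10A and 58.1 ± 7.99 CPM in G12V cells (SD, n = 2; edgeR adjusted p = 0.370). MKL1, which encodes the SRF cofactor MRTF-A, fell by 1.05 on the log2 scale, from 71.4 and 67.1 CPM to 35.0 and 31.7 CPM. The median of the list was -0.21.

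Of 20 genes widely cited as AP-1 targets 14 were tested, of which 6 rose and 2 fell. The 6 included the cytokine genes IL1A, IL1B, CXCL8 and IL6. IL1B went from 10.4 and 3.30 CPM to 285 and 498 CPM (log2 fold change 5.84), CXCL8 from 18.3 and 16.3 CPM to 218 and 360 CPM (4.06), and IL1A from 35.6 and 18.7 CPM to 193 and 478 CPM (3.63). IL6 had 0 and 1 reads in MCF10A against 902 and 856 in G12V cells. Its mean in G12V cells was 281-fold above a floor of 3 reads per library. HMOX1, heme oxygenase 1, rose by 2.38 and PLAUR, the urokinase receptor, by 1.47 on the log2 scale. PLAU, which encodes urokinase itself, fell by 1.42, and SPRR1B, a gene of the cornified envelope, went from 156 and 92 reads to 1 and 0. The mean of SPRR1B in MCF10A was 40.9-fold above the same floor. The metalloprotease genes MMP3, MMP10 and MMP13 had at most 3 reads in each of these libraries. The median log2 fold change of the list was 0.68, also with the genes at the floor set to their bounds.

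Most of these genes are also controlled by other factors, and the list does not measure AP-1 activity. In all 4 lists no gene remained called without MCF10A replicate 1. Calls were also lost without MCF10A replicate 2 (IER3, MAF, MAFF and PLAUR), without G12V replicate 1 (MAF) and without G12V replicate 2 (MAF and MKL1). PLAUR was also lost with upper-quartile factors, library totals alone and no filter. MAF was lost in DESeq2 and with no filter, and the filter set at 1 CPM left it out of the test. Calls were gained as well: CYR61 and NR4A1 higher and NFIL3, MKL2 and IVL lower in both the exact test and DESeq2, and CYR61 higher with library totals alone. Without G12V replicate 1, CYR61, NR4A1, DUSP1, BATF2, CEBPB, DDIT3 and JDP2 were called higher and ATF5, NFIL3 and IVL lower, and without MCF10A replicate 2 IVL was called lower.

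**Figure D4:**
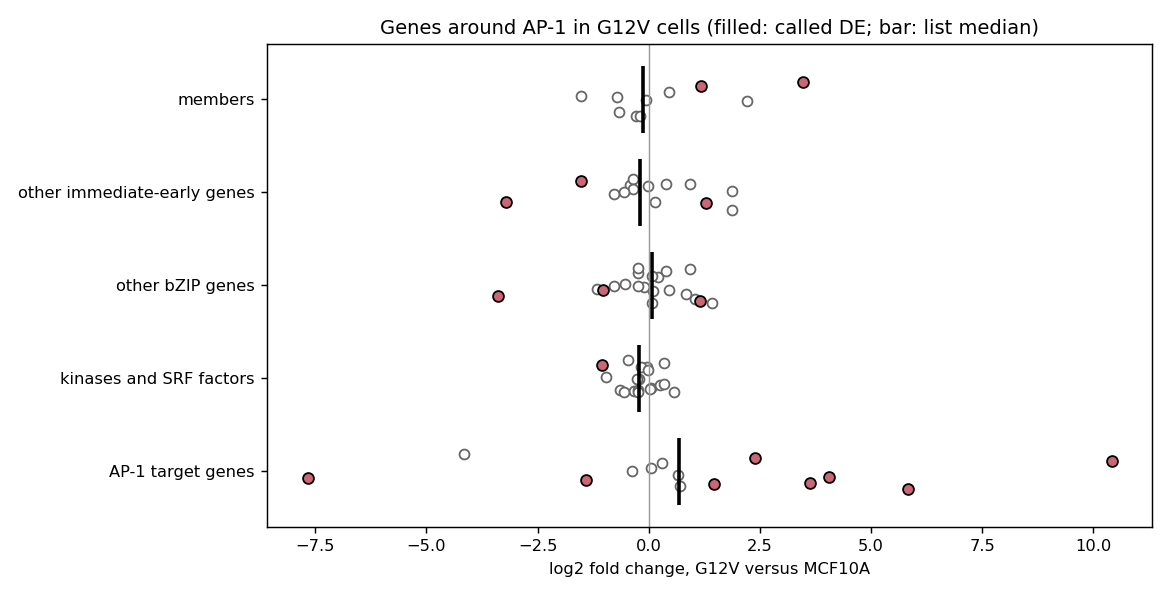
Log2 fold change in G12V versus MCF10A cells of every tested gene of the members and of 4 lists (points, filled where called DE; vertical bars are list medians; heights within a list are only spread for view). The AP-1 target genes range widest, with 6 filled points to the right and 2 to the left, while 1 of the kinases and SRF factors is filled. Fitted values of genes near 0 reads in a cell type, such as IL6 and SPRR1B at the ends, depend on the prior count.

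The second comparison asked whether activation of p53 by Nutlin-3a for 4 h altered these factors in MCF10A cells. With the libraries taken as unpaired, none of the 10 members was called DE by edgeR's quasi-likelihood test, its exact test or DESeq2. These called 0.170%, 0.621% and 0.651% of all genes. The quasi-likelihood test covered 13529 genes and called 0.155% higher and 0.0148% lower. In it 2 members (ATF3 and FOSL2) had an unadjusted p under 0.05. The exact test gave 2 such members and DESeq2 3. The groups overlapped for all 10 members, while they did not overlap for 8.07% of all genes. The median log2 fold change was 0.02 over the members and 0.0066 over all genes. With the replicate number as a block, which the pairing of these libraries calls for, ATF3 was called higher and no member lower. Of all genes 1.22% were called and 0.702% called higher in that fit. Below, log2 fold changes and SEs are without the block unless it is named.

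ATF3 was at 6.86, 9.33 and 3.85 CPM in DMSO replicates 1 to 3 and at 16.0, 16.5 and 7.37 CPM in Nutlin-3a replicates 1 to 3. The Nutlin-3a value of replicate 3 was below the DMSO value of replicate 2, so the groups overlapped, yet in each of the 3 same-numbered pairs Nutlin-3a was higher, by 2.33-, 1.77- and 1.91-fold. The log2 fold change was 0.99 (SE 0.38, edgeR adjusted p = 0.9997), and with the block it was 0.99 (SE 0.13, edgeR adjusted p = 0.00179). It was also called without the filter on low counts (edgeR adjusted p = 0.0049, beside 0.345% of all genes). Across all genes its log2 fold change was higher than that of 99.5%.

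FOS was at 41.7, 48.5 and 28.0 CPM with DMSO and at 50.9, 65.9 and 46.4 CPM with Nutlin-3a. It too was higher with Nutlin-3a in all 3 pairs, by 1.22-, 1.36- and 1.66-fold. FOS thus had a log2 fold change of 0.47 (SE 0.21, edgeR adjusted p = 0.9997). With the block it was 0.48 (SE 0.10, edgeR adjusted p = 0.0241), which is under the fold threshold. FOSL2 was at 124, 175 and 149 CPM with DMSO and at 114, 131 and 111 CPM with Nutlin-3a, lower in all 3 pairs. Its log2 fold change of -0.33 (SE 0.14) did not pass with or without the block (edgeR adjusted p = 0.0885 and 0.9997).

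Among the members EGR1 had the widest range in CPM and the steadiest ratio within pairs. It was at 461, 598 and 298 CPM with DMSO and at 515, 669.9 and 325 CPM with Nutlin-3a. The values of either group spanned about 2-fold, while the ratios within the same-numbered pairs were 1.12, 1.12 and 1.09. Its log2 fold change was 0.15 with an SE of 0.30, and of 0.07 with the block (edgeR adjusted p = 0.422).

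FOSL1, at 213, 258 and 247 CPM with DMSO and 229.9, 256 and 236 CPM with Nutlin-3a, had a log2 fold change of 0.01 with an SE of 0.11. JUN was at 109, 132 and 121 CPM with DMSO and at 99.5, 120.3 and 129 CPM with Nutlin-3a. JUNB was at 183, 201 and 137 CPM with DMSO and at 163, 216 and 124 CPM with Nutlin-3a. Neither gene moved one way in all pairs, and the log2 fold changes were -0.05 (SE 0.13) for JUN and -0.05 (SE 0.21) for JUNB.

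JUND was at 77.4, 74.4 and 78.0 CPM with DMSO and at 70.0, 88.4 and 90.9 CPM with Nutlin-3a, with a log2 fold change of 0.12 (SE 0.12). FOSB was at 2.99, 4.05 and 3.38 CPM with DMSO and at 2.89, 5.15 and 2.63 CPM with Nutlin-3a (0.04, SE 0.30). BATF3 was at 2.88, 2.64 and 2.57 CPM with DMSO and at 1.42, 2.36 and 3.49 CPM with Nutlin-3a (-0.16, SE 0.32). The Nutlin-3a libraries enclosed the DMSO libraries for all 3 genes.

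**Figure D5:**
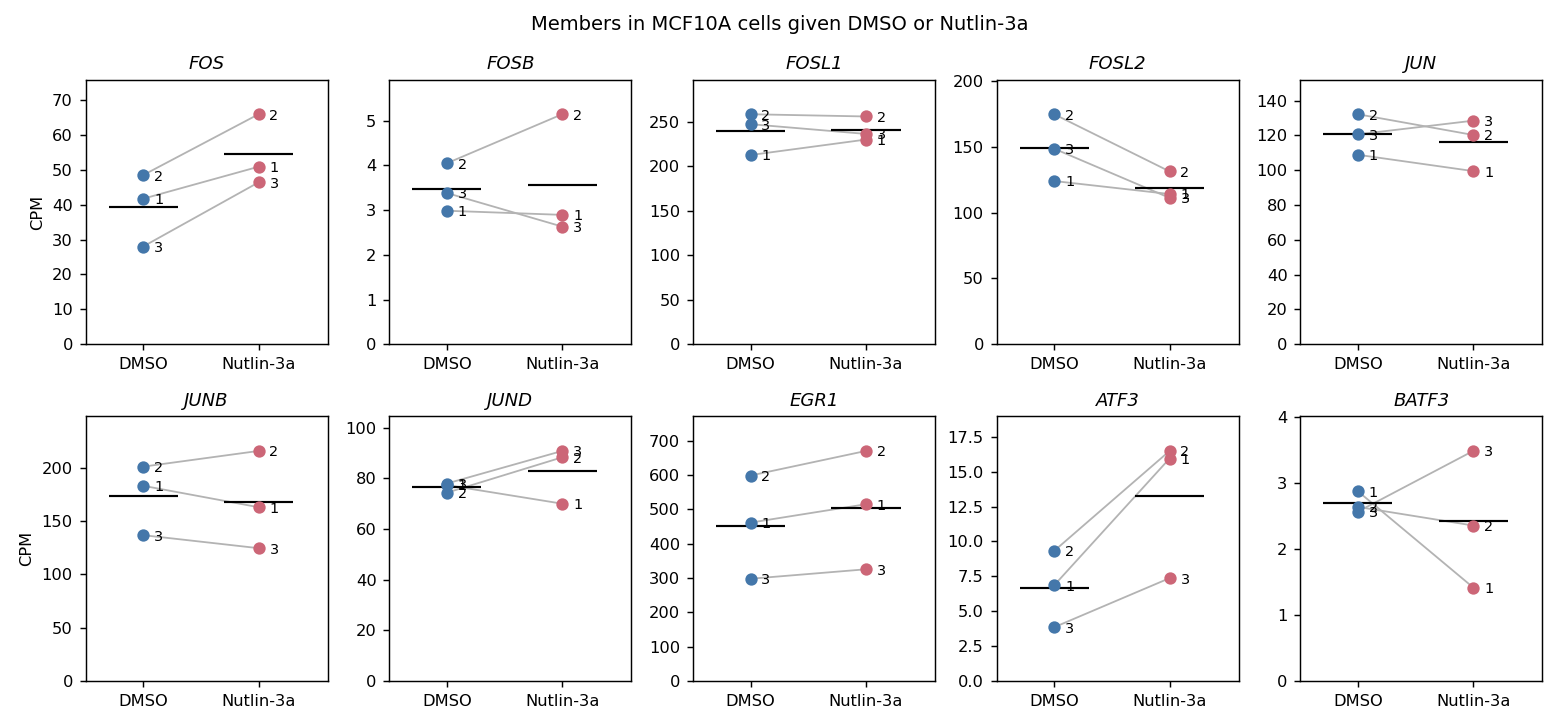
Level of each member (CPM on scaled library sizes, each panel from 0) in MCF10A cells given DMSO (blue) or Nutlin-3a (red), with replicate numbers, a bar at the group mean and grey lines joining libraries of the same number. The lines of ATF3 and FOS rise and those of FOSL2 fall in all 3 pairs, and those of EGR1 run nearly parallel over a 2-fold range.

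The order of the 3 libraries was the same in both treatments for 5 members (FOS, FOSL1, JUNB, EGR1 and ATF3), beside 38.7% of all genes tested. For FOS, JUNB, EGR1 and ATF3 replicate 2 was highest and replicate 3 lowest in both. Per kb EGR1 and FOSL1 stood first with DMSO, at 144 ± 48.0 and 141 ± 14.0 CPM per kb (SD, n = 3), and did not differ beyond their spread. JUNB followed at 94.8 ± 18.1, then JUND at 39.7 ± 1.01, JUN at 37.0 ± 3.58, FOSL2 at 22.2 ± 3.78 and FOS at 18.7 ± 4.96 CPM per kb. ATF3, BATF3 and FOSB were under 4 CPM per kb. FOSL1 made up 75.2% to 80.0% of the FOS family with DMSO and 74.2% to 77.9% with Nutlin-3a.

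Of the 4 lists, the other immediate-early genes held the single gene called, BTG2, an antiproliferative gene and p53 target, which went from 27.8, 33.7 and 36.2 CPM to 224, 222 and 260.3 CPM (log2 fold change 2.85, SE 0.14, edgeR adjusted p = 2.6e-04). With the block MYC was called lower as well (log2 fold change -0.73, SE 0.10, edgeR adjusted p = 0.00199, without the block -0.69 and 0.724). No bZIP gene of 19 tested, no kinase or SRF gene of 19 and no AP-1 target gene of 15 passed in either fit, and their median log2 fold changes were -0.05, -0.06 and -0.05, beside 0.02 in the other immediate-early genes.

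The MCF10A libraries of the 2 experiments were counted on different annotations and are set side by side without a test. FOSL1 was at 58.4 ± 15.3 CPM in untreated MCF10A (SD, n = 2) and at 239 ± 23.9 CPM with DMSO (SD, n = 3), JUN at 46.2 ± 11.3 and 121 ± 11.7, EGR1 at 188 ± 127 and 452 ± 151, and BATF3 at 0.629 ± 0.204 and 2.69 ± 0.162 CPM. JUND, in contrast, was at 107 ± 8.67 and 76.6 ± 1.95 CPM. The FOSL1 level of the DMSO libraries was thus above that of both G12V libraries. The AP-1 target genes called higher in G12V cells were set side by side too. With DMSO, IL1B was at 260 to 693 CPM, CXCL8 at 65.8 to 464, IL1A at 250 to 457 and HMOX1 at 2.28 to 11.7 CPM. These ranges overlapped those of the G12V libraries. PLAUR, at 49.2 to 53.9 CPM, was above both G12V libraries, and IL6, at 0.387 to 1.84 CPM, was below both. In the annotation of the Nutlin-3a experiment FOSB overlaps ERCC1 and JUNB overlaps HOOK2, both on the other strand, small RNA genes lie within ATF3 and BATF3, and in both annotations other genes overlap FOSL2. Whether reads were assigned by strand is not given in the sources used here, so the levels of these genes are less certain.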

How the data were processed

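Poly(A) RNA from 10 libraries was sequenced. Alignment was to hg19 with TopHat, reads were assigned to genes by HTSeq, and the deposited tables hold whole counts that the authors had not normalized. The annotations and the strand setting are not given in the sources used here. Positions of the untreated table were moved to count from 1. The libraries of each comparison alone entered its fit in edgeR 4.0.16 (R 4.3.3, limma 3.58.1): filterByExpr, TMM factors, quasi-likelihood F-test, Benjamini-Hochberg adjustment over all genes tested, prior count 0.125 for log2 fold changes, and the SE as the size of the log2 fold change divided by the root of F. CPM use the TMM-scaled library sizes. Genes were called DE at an adjusted p below 0.05 with a log2 fold change beyond 0.5 either way. The named genes are the 10 members, HRAS, CDKN1A and MDM2, the DE genes of each list (up to 6 with the largest change) and genes a sentence is about. The members and lists were chosen with earlier results of these data known, and the JUN-type motif was added later. The fits were tested on simulated counts first. Replicates are called biological without saying what was repeated, so p-values measure the spread between these libraries, which may be partly technical. In the Nutlin-3a experiment same-numbered libraries deviated together from their group means (correlations 0.62, 0.60 and 0.64, others -0.47 to -0.19), so the numbers pair them. Bounds divide the mean of the higher group by a level of 3 reads in a library and leave out the error of that mean. The alternatives included edgeR's exact test, DESeq2 1.42.0, RLE and upper-quartile factors, library totals, no filter, over 1 CPM in at least 2 libraries, the replicate block, a prior count of 2 and omission of each library; for the lists these were chosen after seeing the data. Promoters and figures were handled in Python 3.11.15 (pandas 2.3.3, matplotlib 3.10.9). Some genes of the lists are not reported here, and the lists were counted without them.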

Additional observations from a re-analysis of the deposited data

How the results depend on the processing

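With 2 libraries a group, 1 library can decide a call, and when one is left out the lone library is assumed to vary like the other group. Between MCF10A and G12V cells the DE members went from 2 to 1 with upper-quartile factors, library totals alone or no filter (FOSL1 at 1.19, 1.21 and 1.18 on the log2 scale, no longer called), and to between 0 and 3 without single libraries; all genes called went from 1575 to 2536 in edgeR's exact test and to between 0 and 2129 without single libraries, 0 being without MCF10A replicate 1. ATF3 was called in the exact test (2.21) and DESeq2 (2.21). The replicate numbers, whose meaning the labels do not give, were tried as a block: 6 of 10 members were called, beside 4158 genes or 28.9% of all tested. JUNB at -0.66, JUND at -0.68, EGR1 at -1.66 and ATF3 at 1.98 were added, as were VIM (0.71) and COL1A1 (-1.08). Called in the lists, beside that 28.9%, were then 6 of 14 immediate-early, 8 of 20 bZIP, 4 of 19 kinase or SRF and 11 of 14 AP-1 target genes. Deviations correlated at 0.49 between same-numbered libraries, which with 2 libraries a group is -0.49 crossed by construction. Without single libraries the log2 fold changes ranged over -1.43 to 0.66 for FOS, -0.85 to 0.11 for FOSB, 0.91 to 1.50 for FOSL1, -0.69 to 0.57 for FOSL2, -2.88 to -0.59 for EGR1, 0.65 to 2.95 for ATF3 and 3.17 to 3.86 for BATF3.

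With Nutlin-3a the genes called went from 23 to 84 in the exact test, 88 in DESeq2, 99 with no filter, 165 with the replicate block and 7 to 11 without single libraries; 1 member, ATF3 (0.98 with no filter, 0.99 with the block), was called with these, and the block changed no other member's call. FOSB and FOSL1 turned to -0.0017 and -0.027 with library totals, and FOSL1 to -6.4e-05 with no filter. Without single libraries the ranges were -0.33 to 0.21 for FOSB, -0.071 to 0.065 for FOSL1, -0.14 to 0.045 for JUN, -0.27 to 0.12 for JUNB, -0.11 to 0.41 for EGR1 and -0.51 to 0.11 for BATF3. The cause of these shifts was not tested. FOSB, BATF3 and ATF3 had at most 266 reads in a library, and the part of counting error in their spread was not tested.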
